A study of Homo sapiens with 6 samples.

Results

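Interleukins, chemokines and colony-stimulating factors were examined in BT549 cells, an established line of basal-like breast cancer, after treatment with AS1842856. AS1842856 is a small-molecule inhibitor of FOXO1, a forkhead transcription factor, and hinders its direct binding to DNA. The study proposes that the drug modulates FOXO1 and does not only inhibit it. RNA-Seq was performed on 3 libraries of cells given DMSO, the vehicle control, and on 3 libraries of cells given AS1842856, and both groups were collected 48 h after treatment. The sample labels give the dose as 200 nM, whereas the methods of the study name a micromolar dose, and which dose applies was not resolved here. All libraries come from the same cell line with no other alteration named, and the text of the study calls the replicates, named A, B and C in each group, biological. The p-values therefore measure the spread between cultures of a single line.

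Genes were chosen by symbol. Of 58735 genes in the count table, 90 had a symbol of the form CXCL, CCL or IL followed by a number, with at most 1 further letter for the interleukins, or were CX3CL1, LIF, CSF1, CSF2, CSF3, IL1RN or MIF. That pattern also matched 6 receptor genes (IL4R, IL6R, IL7R, IL9R, IL21R and IL23R), which leaves 84 genes for secreted or membrane-bound ligands. A total of 54 genes had at least 1 count in some library and 36 had none. After genes with few counts were removed by edgeR's filterByExpr, 25 of the 90 were tested, and 22 of these code for ligands. Interferon beta, tumor necrosis factor and growth factors carry other symbols and were not among them.

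Cytokines are small secreted proteins through which cells signal to each other, and chemokines are those that direct the movement of leukocytes. The ELR chemokines, named for a short amino acid motif near their amino terminus, draw neutrophils through the receptors CXCR1 and CXCR2. Their genes lie close together in the genome. Tumor cells release ELR chemokines, IL6 and CSF1, which act on neutrophils, on macrophages and on the tumor cells themselves, and many of these genes respond to NF-kB.

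The 6 libraries held between 15289500 and 22981832 counts. TMM factors, which correct for composition, were between 0.995 and 1.01. In each pair of replicates the chi-square divided by its degrees of freedom was 2.32 to 3.12, above sampling noise, and none was counted as a repeat deposit. The basal-like or mesenchymal markers VIM, EGFR, CDH2, CD44 and ZEB1 were above 3 counts in the libraries. Their log2 fold changes in AS1842856 against DMSO were −0.34, −0.55, −0.19, −0.45 and 0.50, in that order. The basal keratins KRT5 and KRT14 had at most 1 count in any library. The 9 luminal markers were mixed. ESR1 and CDH1 had at most 1 count and PGR and EPCAM at most 8, whereas GATA3 was at 50.9 CPM (counts scaled to the library total and the TMM factor) in DMSO and 61.7 CPM in AS1842856, and ERBB2 fell by 0.90 on the log2 scale (adjusted p = 2.92e-29, edgeR's quasi-likelihood test with Benjamini-Hochberg adjustment). The keratins KRT8 and KRT18 fell, with log2 fold changes of −3.31 and −3.30 (adjusted p = 2.14e-88 and 2.31e-80), and KRT19 rose by 1.61 (adjusted p = 1.03e-19). Of 16 immune cell markers, 7 were at 0 in all libraries and 13 had at most 3 counts in every library. The 3 exceptions were NCAM1, which neural and some tumor cells also express, PTPRC and CD14. Without NCAM1, the summed immune marker level, most of it PTPRC, was 1.18 to 2.28 CPM in DMSO and 3.72 to 4.77 CPM in AS1842856. PTPRC, which codes for CD45, had 26, 24 and 13 counts in DMSO and 44, 74 and 64 counts in AS1842856 (log2 fold change 1.48, adjusted p = 4.99e-07). CD14, a marker of monocytes, had 5, 7 and 6 counts in DMSO and 14, 7 and 19 in AS1842856 and was too low to be tested. Of 4 endothelial markers, 3 had at most 3 counts in every library. The part of these markers in the results below was not tested. In bulk RNA, fewer cells that express a gene and less RNA per cell cannot be told apart.

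AS1842856 treatment was followed by lower mRNA of most ELR chemokines, CSF1, IL6 and CCL5, and by higher mRNA of IL24, IL10, IL11, CXCL8 and 3 receptor genes. Of these receptor genes, IL4R rose by only 0.20 on the log2 scale with overlapping groups, and its call was lost in 8 alternative fits. In all, 18 of the 25 tested genes had an adjusted p under 0.05, a share of 72%, of which 7 were higher and 11 lower. Over all 14338 genes tested the shares were 56.0% called, 27.6% higher and 28.4% lower, so a large part of the transcriptome also passed this threshold. Calls whose log2 fold change was 1 or more in either direction numbered 13 of the 25, with 4 higher and 9 lower, against 10.6% of all genes tested. The groups did not overlap for 19 of the 25, of which 6 were higher and 13 lower in AS1842856, against 59.9% of all genes tested. The median log2 fold change was −0.39 over the 25 genes and 0.0030 over all genes tested. The filter on low counts shapes these figures, because 29 genes with a count were too low to be tested, and it kept genes for which about 10 counts were reached in 3 libraries. All 4 genes higher by at least 1 on this scale (IL10, IL24, IL11 and IL6R) passed through their AS1842856 libraries, and IL17D among the lower genes through its DMSO libraries. With both groups at the level of the lower one, these genes would not have been tested. The counts and the median therefore describe the tested genes and support nothing about the whole group.

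**Figure D1:**
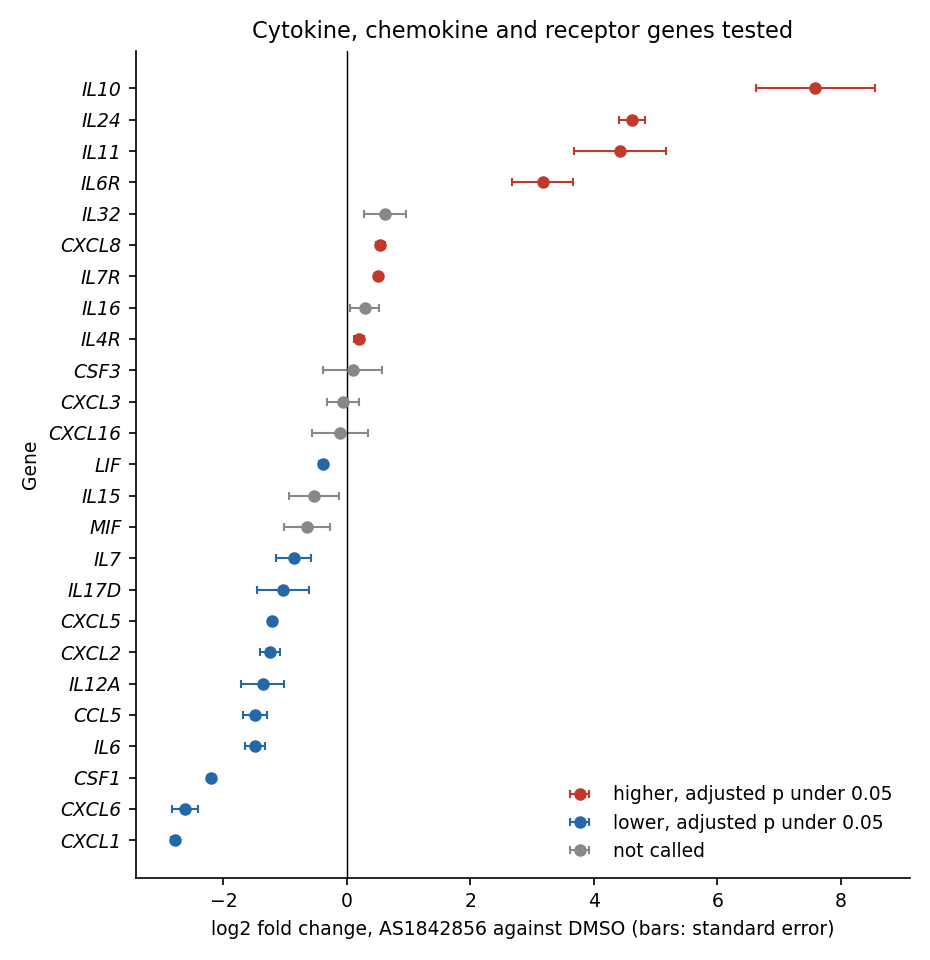
Log2 fold change of each of the 25 tested genes, AS1842856 against DMSO, with bars of 1 standard error; red points were called higher, blue points lower and grey points were not called by edgeR's quasi-likelihood test. CXCL1 is lowest at −2.79 and IL10, which had no count in DMSO, is highest at a fitted 7.58.

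The sequences before the start sites of a few of these genes are shown here because the ELR chemokines moved apart although their genes lie close together, and because IL10 and IL24 rose from the same neighborhood. Each is the stretch of 250 bases upstream of the RefSeq start (GRCh38.p14), written 5′ to 3′ on the strand of the gene. CXCL1 had the largest decrease of the 25, CXCL3 was not called, CXCL8 rose, and IL10 and IL24 rose from near 0. Capitals mark matches to motifs searched on both strands, which were the NF-kB consensus, the AP-1 motif TGANTCA, the forkhead motif GTAAACA, the TCF/LEF motif CTTTGAT and the TATA motif TATAAA. The starts of CXCL3 and CXCL8 in RefSeq lie downstream of those in GENCODE, so their windows run into the GENCODE gene models.
CXCL1, chr4:73869143-73869392, plus strand: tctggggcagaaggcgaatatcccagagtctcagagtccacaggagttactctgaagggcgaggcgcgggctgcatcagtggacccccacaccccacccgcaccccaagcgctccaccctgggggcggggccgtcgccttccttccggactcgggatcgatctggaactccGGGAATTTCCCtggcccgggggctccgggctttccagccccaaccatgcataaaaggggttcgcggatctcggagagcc
CXCL3, chr4:74038690-74038939, minus strand: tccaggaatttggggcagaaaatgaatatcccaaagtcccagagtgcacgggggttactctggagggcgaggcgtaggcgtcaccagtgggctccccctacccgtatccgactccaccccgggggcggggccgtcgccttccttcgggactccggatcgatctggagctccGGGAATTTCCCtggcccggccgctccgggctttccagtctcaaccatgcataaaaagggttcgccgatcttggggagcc
CXCL8, chr4:73740319-73740568, plus strand: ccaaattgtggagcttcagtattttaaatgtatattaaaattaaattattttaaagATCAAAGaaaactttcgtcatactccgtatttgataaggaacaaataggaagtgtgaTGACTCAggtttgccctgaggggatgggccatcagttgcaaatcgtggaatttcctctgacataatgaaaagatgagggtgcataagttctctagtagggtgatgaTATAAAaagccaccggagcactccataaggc
IL10, chr1:206772495-206772744, minus strand: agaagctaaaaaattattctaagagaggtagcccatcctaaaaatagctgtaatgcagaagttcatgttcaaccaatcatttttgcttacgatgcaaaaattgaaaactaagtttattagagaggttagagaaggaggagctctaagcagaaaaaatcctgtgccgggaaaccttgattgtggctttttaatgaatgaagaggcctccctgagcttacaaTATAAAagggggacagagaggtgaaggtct
IL24, chr1:206897193-206897442, plus strand: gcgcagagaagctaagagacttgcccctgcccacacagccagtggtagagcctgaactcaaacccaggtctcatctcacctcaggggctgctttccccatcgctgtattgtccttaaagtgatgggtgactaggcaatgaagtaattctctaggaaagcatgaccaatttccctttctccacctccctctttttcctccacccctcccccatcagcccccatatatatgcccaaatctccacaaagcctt
Of the 25 tested genes, 18 had a promoter that was found in the RefSeq table and lies on a chromosome used for sequences here. The NF-kB consensus occurred in 10 of these 18 windows, against 9.96% of the 35116 promoters of the same length. It was found in 7 of 7 windows of genes that fell and in 1 of 7 windows of genes that rose, but 4 of the 11 genes that fell, CSF1, CCL5, LIF and IL7, had no window here. The genes behind these windows were also shaped by the filter on low counts. IL10, IL24, IL11 and IL6R passed it through their AS1842856 libraries, and IL17D through its DMSO libraries. The counts of windows therefore describe these genes only, and a part of NF-kB in their levels was not tested. The windows are not independent of each other. CXCL1, CXCL2, CXCL3, CXCL5 and CXCL6 each held the letters GGGAATTTCC, which began between 91 and 78 bases before the start. CXCL5 and CXCL6 shared 33.6% of their 10-base windows, CXCL1 shared 27.0% with CXCL2 and 21.2% with CXCL3, and CXCL8 shared none with the other 5. The same letters at the same distance thus stood before CXCL1, which fell, and CXCL3, which was not called. The CXCL8 window held no match to the consensus as searched, although the letters ggaatttcct occur in it, and it held the AP-1 motif, which otherwise occurred in the IL11 window and in 6.57% of all promoters. CXCL8 also held the TCF/LEF motif, found in 2.26% of all promoters, and a TATA motif, which IL10 and IL7R also had and which occurs in 10.7% of all. The forkhead motif occurred in 0 of 18 windows and in 2.98% of all promoters. A match is a run of letters and was not tested for binding in these cells, and a window without a match says nothing about a factor.

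Among the ELR chemokines with a CXCL symbol, 6 of 6 genes were tested, of which 4 fell, 1 rose and 1 was not called. Related genes with other symbols, such as PPBP, were not in this group. CXCL1 (ENSG00000163739, chr4:73869393-73871242, GRCh38) had the highest level per length of these 6 in control cells. It had 121, 121 and 127 CPM in the DMSO libraries and 18.1, 16.6 and 19.0 CPM in the AS1842856 libraries. Every DMSO library was far above every AS1842856 library. The mean was 6.87-fold lower after treatment (log2 fold change −2.79, SE 0.059, adjusted p = 1.46e-123, edgeR's quasi-likelihood test). CXCL6, a ligand of both neutrophil receptors, was at 7.06, 7.10 and 6.51 CPM in DMSO and at 0.720, 1.27 and 1.29 CPM after AS1842856, a change of −2.62 (SE 0.21, adjusted p = 4.00e-26). CXCL6 thus moved nearly as far as CXCL1, the nearest of the 6 to it on the chromosome, from a level per length of 3.14 FPKM against 94.3 FPKM. CXCL5, which shares the receptor CXCR2, went from 125, 140 and 137 CPM to 58.0, 63.5 and 51.2 CPM (log2 fold change −1.21, SE 0.050, adjusted p = 7.73e-40). CXCL2 had 8.70, 8.72 and 7.91 CPM in DMSO and 4.20, 2.98 and 3.65 CPM in AS1842856 (−1.24, SE 0.16, adjusted p = 5.21e-13). The groups did not overlap for either gene, and both decreases were smaller than that of CXCL1.

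CXCL3 and CXCL8 did not follow. CXCL3, close in sequence to CXCL1 and CXCL2, had 2.10, 2.02 and 2.53 CPM in DMSO and 1.80, 2.28 and 2.24 CPM in AS1842856, and the groups overlapped (−0.065, SE 0.25, adjusted p = 0.848). CXCL8, which codes for interleukin-8, was higher in each AS1842856 library, with 25.1, 28.4 and 28.1 CPM in DMSO against 39.3, 38.1 and 40.9 CPM after treatment. The mean was 1.45-fold higher (log2 fold change 0.54, SE 0.070, adjusted p = 1.99e-12). CXCL1 and CXCL2 shared 60 windows of 50 bases in their annotated transcripts, and CXCL2 and CXCL3 shared 139, which is 8.99% of those of CXCL2 and 6.01% of those of CXCL3. Reads from these stretches could be divided between the genes or dropped, so the low values of CXCL2 and CXCL3 are less certain than those of CXCL5, CXCL6 and CXCL8, which shared none.

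Because the genes differ in length, levels were compared between genes as FPKM (fragments scaled by gene length and library size). The ELR genes with a CXCL symbol summed to 168 ± 4.87 FPKM (SD, n = 3) in DMSO and 57.3 ± 0.796 FPKM in AS1842856. CXCL1 held 56.0% ± 1.25 of that sum in DMSO and 24.0% ± 1.88 after treatment. CXCL8 went the other way, from 7.06% ± 0.290 to 30.1% ± 1.43, and CXCL5 from 31.2% ± 1.05 to 39.3% ± 3.74. For each of these 4 quantities the groups did not overlap, with a two-sided exact permutation p of 0.1, the smallest that 3 against 3 libraries allow. CXCL1 led CXCL5 in each DMSO library, whereas CXCL5, CXCL8 and CXCL1 ranked in that order in each AS1842856 library.

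**Figure D2:**
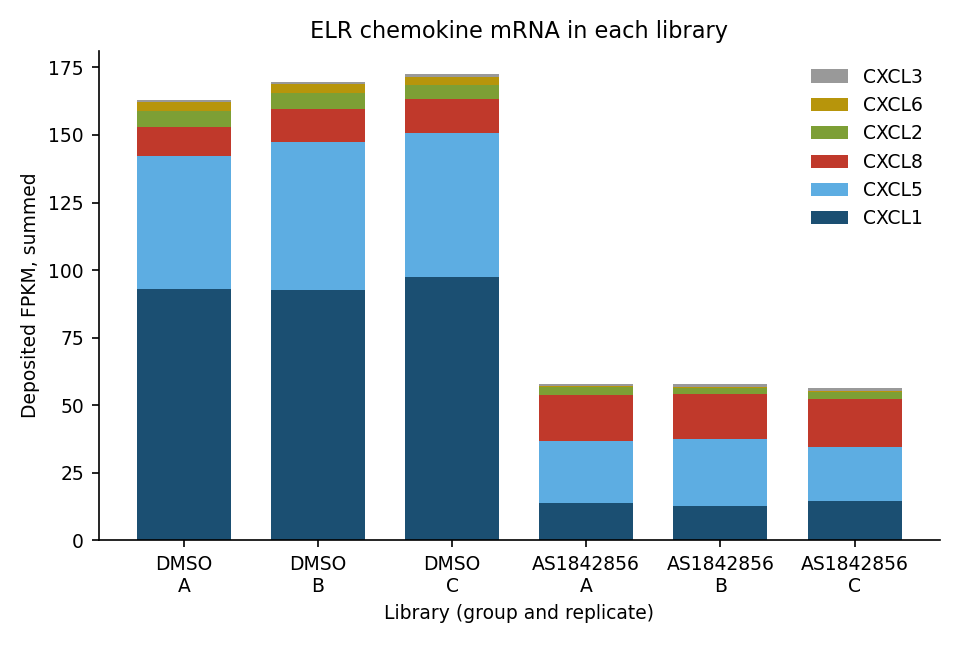
Deposited FPKM of the 6 ELR chemokine genes with a CXCL symbol, stacked for each of the 6 libraries, with each color standing for 1 gene. The DMSO bars reach 163 to 173 FPKM with CXCL1 as the largest part, and the AS1842856 bars reach 56.4 to 57.9 FPKM, of which CXCL5 and CXCL8 form the larger parts.

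These 6 ELR genes lie on chromosome 4 in the order CXCL8, CXCL6, CXCL1, CXCL5, CXCL3 and CXCL2, with gaps of 92.8, 20.3, 124, 37.8 and 58.2 kb. The gaps were measured between genes of the symbol rule only, and other genes can lie within them. The genes that fell most, CXCL6 and CXCL1, are separated by the shortest of these gaps. CXCL8, at one end of the row, rose, and CXCL3 lies between CXCL5 and CXCL2, both of which fell. Farther along the chromosome, the CXCR3 ligands CXCL9, CXCL10 and CXCL11, which interferon induces, were too low to be tested. CXCL9 had no count, CXCL11 had 1 count in AS1842856 replicate A, and CXCL10 had 4 counts in DMSO replicate C and none elsewhere.

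**Figure D3:**
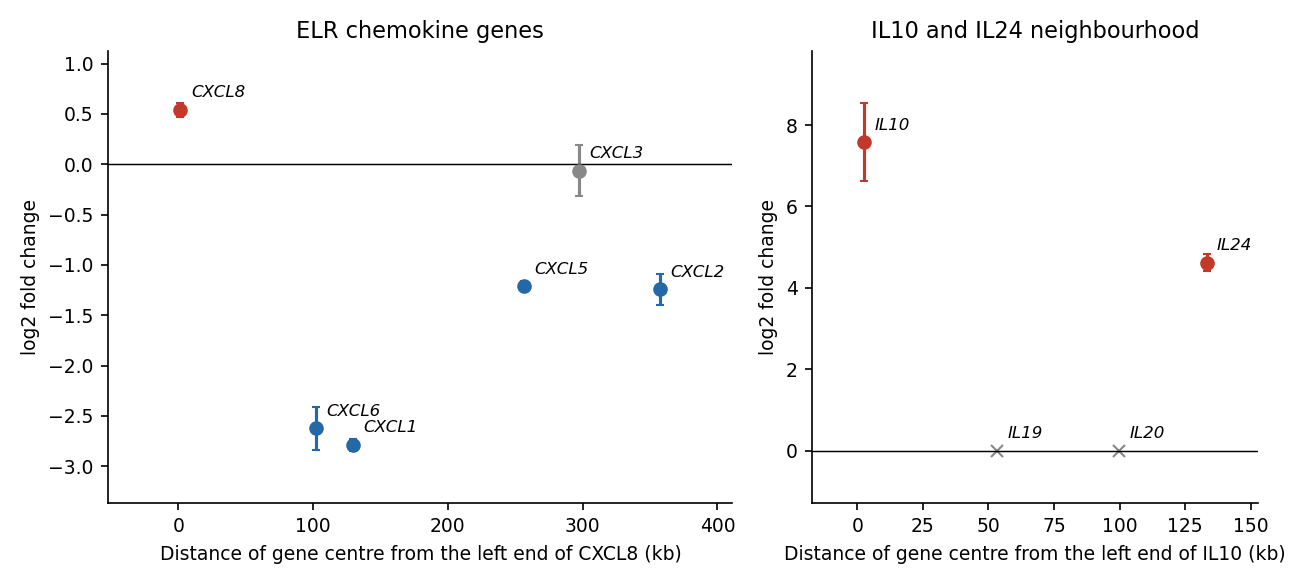
Log2 fold change with bars of 1 standard error against distance in kb, for the ELR chemokine genes on chromosome 4 (left) and for IL10 and its neighbors on chromosome 1 (right); red was called higher, blue lower, grey not called, and a cross on the zero line marks a gene too low to be tested. CXCL8 and CXCL1 sit at 0.54 and −2.79, and IL10 and IL24 both sit far above 0 with IL19 and IL20 untested between them.

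CSF1 (ENSG00000184371, chr1:109910242-109930992), the factor that keeps macrophages alive through the receptor CSF1R, had the most counts of the ligand genes in DMSO. It was at 189, 192 and 185 CPM in DMSO and at 39.1, 43.6 and 40.1 CPM in AS1842856. The treated mean was 4.61-fold lower (log2 fold change −2.20, SE 0.047, adjusted p = 1.96e-122). The groups lay far apart and the replicates within each close together. CSF3, which drives the making of neutrophils, stayed between 0.215 and 0.788 CPM over the 6 libraries and was not called (0.093, SE 0.48, adjusted p = 0.887). CSF2 had 1, 0 and 5 counts in DMSO and none in AS1842856, and IL34, the other ligand of CSF1R, had 6, 4 and 1 counts against 1, 0 and 1. Both were too low to be tested. The receptor genes CSF2RB and CSF3R had at most 1 count in any library. CSF1R itself had between 7 and 22 counts a library and was not called (0.60, SE 0.46, adjusted p = 0.263).

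The 3 measured genes of the interleukin-6 family moved apart. These cytokines signal through the shared receptor chain IL6ST, known as gp130, to JAK kinases and STAT3. IL6 had 8.43, 8.07 and 8.29 CPM in DMSO and 3.24, 2.45 and 3.25 CPM in AS1842856, 2.77-fold lower (log2 fold change −1.49, SE 0.16, adjusted p = 4.25e-16). LIF, which maintains stem cells in culture, was lower by less, with 53.4, 49.5 and 56.0 CPM against 39.0, 41.6 and 40.5 CPM (−0.39, SE 0.060, adjusted p = 1.53e-09). IL11 rose from 1, 1 and 0 counts to 15, 26 and 11 counts. Its ratio of depth-scaled counts was 25.3 with a 95% interval of 6.67 to 215, which covers counting error only (fitted log2 fold change 4.42, SE 0.74, adjusted p = 4.38e-08). Both genes that fell had separate groups, and so did IL11, which reached 0.329 FPKM against 10.1 FPKM for LIF. IL27 and IL31 had no count. A stretch of 46 exon bases of IL6 is shared with STEAP1B on the other strand, which had 471 counts in all and fell as well (−0.53, adjusted p = 0.00786), and reads there cannot be told apart without strand.

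The receptors of this family were measured too. IL6R, the chain that binds IL6, rose from 1, 3 and 5 counts to 27, 31 and 28 counts (log2 fold change 3.17, SE 0.50, adjusted p = 4.06e-09), the opposite direction to IL6. IL6ST was at 317, 333 and 319 CPM in DMSO and at 205, 204 and 184 CPM in AS1842856 and fell by 0.71 on the log2 scale (adjusted p = 5.86e-48). LIFR and OSMR, which pair with IL6ST, fell by 0.18 and 0.28 (adjusted p = 0.00317 and 1.24e-11). IL11RA, the binding chain for IL11, was not called (−0.093, SE 0.085, adjusted p = 0.362). STAT3, which these receptors activate, fell by 0.88 (adjusted p = 1.44e-62) and JAK1 by 0.53 (adjusted p = 2.75e-32), while SOCS3, a feedback inhibitor that STAT3 induces, was at 33.9 CPM ± 3.65 and 33.2 CPM ± 1.83 and was not called (−0.033, SE 0.070, adjusted p = 0.712).

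Both tested genes of the interleukin-10 family rose, but at their DMSO levels neither would have passed the filter on low counts. IL24, a cytokine of epithelial tissue also known as a growth inhibitor of tumor cells, had 11, 2 and 18 counts in DMSO and 239, 339 and 211 in AS1842856. In CPM the DMSO libraries were at 0.501, 0.130 and 0.969 and the treated libraries at 14.3, 14.8 and 11.8, so the control values varied more than the treated ones. The mean rose 25.6-fold (log2 fold change 4.61, SE 0.21, adjusted p = 4.17e-49). Without DMSO replicate C, the library with the most IL24 counts among the controls, the log2 fold change was 5.27 (adjusted p = 2.35e-39). Without DMSO replicate B, the control with the fewest, it was 4.24 (adjusted p = 6.51e-46). IL10, which restrains immune cells, had no count in the 3 DMSO libraries and 20, 34 and 19 counts in the AS1842856 libraries. Set against a limit of 3 counts per DMSO library, it was at least 7.61-fold higher (adjusted p = 6.27e-13), and the fitted log2 fold change of 7.58 depends on the small count that the fit adds. PTPRC, and with it the immune marker sum that it mostly makes up, was also higher in these libraries, as given above. CD14 had 7 to 19 counts in them against 5 to 7 in DMSO. Of the other immune markers, NCAM1 was not called (0.022, SE 0.068, adjusted p = 0.808) and 13 did not pass 3 counts in any library.

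IL10, IL19, IL20 and IL24 lie next to each other on chromosome 1 with gaps of 26.4, 22.4 and 28.2 kb. IL19 had 0, 2 and 1 counts and IL20 had 0, 0 and 1 counts in AS1842856, and neither had any in DMSO. The genes at both ends of the row were therefore called and those between them were too low to be tested. IL22 and IL26 had no count. The receptor chain IL10RA, which IL10 needs, had no count in any library, and IL10RB was not called (0.34, SE 0.47, adjusted p = 0.557). For IL24, IL20RB had between 16 and 31 counts a library and was not called (−0.023, SE 0.35, adjusted p = 0.964), and its partners IL20RA and IL22RA1 had at most 7 and 5 counts and were not tested.

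**Figure D4:**
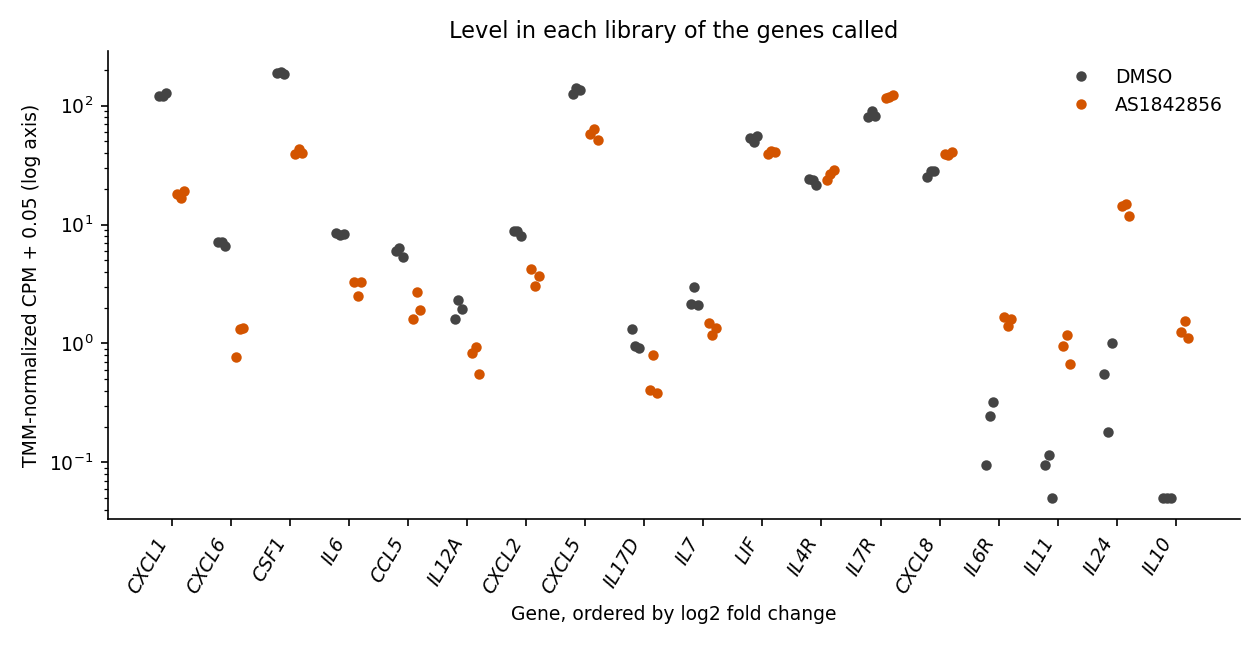
TMM-scaled CPM plus 0.05, on a log axis, of the 18 called genes in each of the 3 DMSO (grey) and 3 AS1842856 (orange) libraries, ordered by log2 fold change from left to right. The groups are separate for each gene but IL4R, and IL10 lies at the lowest point of the axis in DMSO because it had no count there.

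CCL5 was the one CC chemokine of 24 that was tested. It attracts T cells and monocytes, and it had 5.97, 6.25 and 5.27 CPM in DMSO and 1.56, 2.67 and 1.85 CPM in AS1842856 (log2 fold change −1.49, SE 0.20, adjusted p = 4.52e-12). All treated libraries were below all controls. CCL2, the main attractant of monocytes, was near the detection limit, with 9, 5 and 3 counts in DMSO and 3, 2 and 7 counts in AS1842856. CCL26 had 3 counts in DMSO replicate C and none elsewhere. Of the other CC chemokines, 4 had 1 or 2 counts in some library and 17 had none. Of the CXC chemokines outside the ELR group, CXCL16, the ligand of CXCR6, was at 0.618 CPM ± 0.177 and 0.585 CPM ± 0.173 with overlapping groups (−0.11, SE 0.46, adjusted p = 0.856). CXCL12, CXCL14, CXCL17 and CX3CL1 had no count.

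Among the interleukins that act on lymphocytes, IL12A and IL7 fell. IL12A, a subunit of interleukin-12, had 1.55, 2.28 and 1.88 CPM in DMSO and 0.780, 0.876 and 0.505 CPM in AS1842856 (log2 fold change −1.36, SE 0.35, adjusted p = 3.11e-04). Its partner IL12B had 2 counts, both in DMSO replicate C, and EBI3, with which it can also pair, had 3, all in AS1842856 replicate C. IL7, a survival factor of lymphocytes, was at 2.10, 2.93 and 2.05 CPM in DMSO and at 1.44, 1.14 and 1.29 CPM in AS1842856 (−0.86, SE 0.29, adjusted p = 0.00658). Without DMSO replicate B its adjusted p was 0.0620. ZC2HC1A, which shares 9.49% of the exon bases of IL7 on the other strand, held 3002 counts and rose (0.44, adjusted p = 2.11e-07), so it moved against IL7. IL15, which supports natural killer cells, was at 0.950 CPM ± 0.125 in DMSO and 0.668 CPM ± 0.199 in AS1842856 and was not called (−0.54, SE 0.41, adjusted p = 0.266), although no treated library reached a control.

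IL17D, a less studied member of the interleukin-17 family, was at 1.28, 0.912 and 0.861 CPM in DMSO and at 0.360, 0.745 and 0.336 CPM in AS1842856 (−1.03, SE 0.42, adjusted p = 0.0291). That call rests on few counts, 6 to 28 a library. Its adjusted p was 0.176, 0.118 and 0.135 without DMSO replicate A, AS1842856 replicate A and AS1842856 replicate C. The antisense gene AL161772.1 shares 39.0% of its exon bases and had 25 counts in all, against 87 for IL17D.

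IL16, IL32 and MIF were not called. IL16, a ligand of CD4, was at 2.34 CPM ± 0.576 and 2.84 CPM ± 0.303 (0.29, SE 0.24, adjusted p = 0.308), and 36.0% of its exon bases are shared with STARD5 on the other strand. IL32 was at 0.961 CPM ± 0.349 and 1.49 CPM ± 0.421 with overlapping groups (0.61, SE 0.34, adjusted p = 0.118). MIF, which restrains the random migration of macrophages and is abundant in many cells, had 25, 19 and 23 counts in DMSO and 6, 18 and 20 in AS1842856 (−0.65, SE 0.38, adjusted p = 0.137). Its low level is uncertain, because MIF-AS1 on the other strand and AP000350.4 on the same strand share 61.9% and 32.2% of its exon bases, and how reads shared by genes were counted is not given in the sources used here.

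No gene of the interleukin-1 family, which drives inflammation, passed the filter on low counts. IL1B came closest, with 15, 13 and 10 counts in DMSO and 0, 4 and 2 counts in AS1842856, and it was the 1 gene of 29 untested genes with a count that was called when no filter was applied (log2 fold change −2.67, adjusted p = 0.000995). Every treated library was below every control. IL1A had 2, 4 and 0 counts in DMSO and 5, 4 and 6 in AS1842856, and its groups overlapped. IL37 had 1, 4 and 0 counts against 0, 5 and 0, IL36G had 3, 1 and 1 against 0, 1 and 0, and IL36B had 3 counts in AS1842856 replicate C alone. IL1RN, the natural antagonist of interleukin-1, had no count. Over all groups, 18 of the 29 untested genes had under 3 counts in every library, at which depth no difference was detectable.

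The remaining receptor genes caught by the symbol pattern rose or were near 0. IL7R, the binding chain for IL7, was at 80.1, 90.3 and 81.5 CPM in DMSO and at 116, 117 and 124 CPM in AS1842856, 1.42-fold higher (log2 fold change 0.51, SE 0.045, adjusted p = 1.04e-22). It was higher in every treated library, the opposite direction to IL7. IL2RG, the shared chain with which IL7R forms its receptor, had no count. IL4R, which binds IL4 and IL13, went from 23.9, 23.4 and 21.4 CPM to 23.5, 26.6 and 28.7 CPM with overlapping groups (0.20, SE 0.081, adjusted p = 0.0280). That call was lost without DMSO replicate C, AS1842856 replicate B or AS1842856 replicate C (adjusted p = 0.178, 0.0832 and 0.219). IL9R had 0, 0 and 1 counts against 0, 1 and 5, IL21R had 2 counts in 2 of the treated libraries and IL23R had none.

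The levels of the ligand genes were also added up, and in DMSO a few of them carried most of the total. The summed level was 572 CPM ± 10.2 (SD, n = 3) in DMSO and 234 CPM ± 8.01 in AS1842856 (two-sided exact permutation p = 0.1, the smallest possible here). Without CSF1, CXCL5 and CXCL1 the sums were 126 CPM ± 2.35 and 118 CPM ± 1.65, so the net change outside those 3 genes was small. Rises and falls offset each other there. CXCL8 rose from a mean of 27.2 to 39.4 CPM and IL24 from 0.533 to 13.7 CPM. LIF fell from 53.0 to 40.4 CPM, and CXCL6, IL6, CXCL2 and CCL5 fell as well. Per length, CXCL1 held 41.1% ± 0.813 of ligand FPKM in DMSO and 15.5% ± 1.44 in AS1842856, CSF1 15.1% ± 0.484 and 8.44% ± 0.295, and CXCL8 5.18% ± 0.250 and 19.4% ± 1.19. IL24 went from 0.116% ± 0.0901 to 7.72% ± 0.762. CXCL5 held 22.9% ± 0.902 and 25.3% ± 2.07, with overlapping groups (exact permutation p = 0.2). In DMSO the order by mean FPKM was CXCL1 (94.3 ± 2.63), CXCL5 (52.5 ± 2.92), CSF1 (34.6 ± 0.576), LIF (13.3 ± 0.834) and CXCL8 (11.9 ± 0.789). LIF and CXCL8 were not separated, since a CXCL8 library reached 12.4 FPKM, the level of the lowest LIF library. In AS1842856 the order was CXCL5 (22.5 ± 2.43), CXCL8 (17.2 ± 0.587), CXCL1 (13.7 ± 0.906), LIF (10.1 ± 0.316), CSF1 (7.50 ± 0.433) and IL24 (6.87 ± 0.817), and the last of these overlapped with CSF1.

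Of 46 receptor genes for interleukins and colony-stimulating factors, the 6 above among them, 23 were tested and 16 were called, with 7 higher and 9 lower, a share of 69.6% beside 56.0% of all genes. Their median log2 fold change was 0.14. The largest decreases were in receptors whose ligands were scarce or absent here, but so were most ligands, since 22 of the 84 ligand genes were tested. IL27RA, the receptor of IL27, fell by 2.05 (adjusted p = 5.60e-11), IL17RC, a chain of the receptor for IL17A and IL17F, fell by 1.80 (adjusted p = 3.04e-27), IL17RE, the receptor of IL17C, fell by 1.30 (adjusted p = 9.69e-05), and IL31RA, the receptor of IL31, fell by 1.17 (adjusted p = 8.63e-22). IL1R1 and IL1RAP, which together form the interleukin-1 receptor, rose by 0.25 and 0.40 (adjusted p = 9.69e-07 and 1.33e-15). IL13RA1, which pairs with IL4R, fell by 0.36 (adjusted p = 4.69e-14).

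Chemokine receptors were nearly silent. Of 24 genes, 2 were tested, and CXCR1 and CXCR2, the receptors of the ELR chemokines, had no count. CCR10 had 24, 17 and 22 counts in DMSO and 10 in each treated library and was called lower (−1.09, adjusted p = 0.0166), a call lost without DMSO replicate C or AS1842856 replicate B. ACKR3, a scavenger of chemokines, was not called (−0.20, SE 0.33, adjusted p = 0.635).

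Downstream of these receptors, 21 of 23 JAK, STAT and SOCS genes were tested and 15 were called, with 5 higher and 10 lower, a share of 71.4% beside 56.0% of all genes tested. STAT5A, which IL7 and other cytokines activate, had 48, 37 and 53 counts in DMSO and 6, 3 and 5 in AS1842856 and fell by 3.30 on the log2 scale (SE 0.41, adjusted p = 1.87e-13). STAT5B, its close relative, was at 6.06 FPKM in DMSO against 0.429 FPKM for STAT5A, and it fell by less (−0.61, SE 0.071, adjusted p = 4.02e-15). SOCS2 and CISH, which restrain STAT5 signalling and are induced by it, moved the other way. SOCS2 rose from 17.3 CPM ± 2.31 to 81.8 CPM ± 0.578 (2.24, SE 0.065, adjusted p = 3.00e-94), and CISH rose from 16, 6 and 6 counts to 42, 39 and 38 counts (2.07, SE 0.37, adjusted p = 2.08e-07). STAT5A passed the filter on low counts through its DMSO libraries and CISH through its AS1842856 libraries.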

How the data were processed

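RNA was extracted with a Qiagen kit and sequenced by Illumina protocols from 3 DMSO and 3 AS1842856 cultures of BT549. The authors deposited raw counts per gene without normalization, in 1 table for the 6 libraries. The authors also deposited FPKM values per library, which are scaled by gene length and library size and list the 25015 genes with at least 2 counts in total. The methods of the study name STAR for mapping, and the submitters' processing notes name CASAVA, Bowtie 0.12.2 and GRCh38. The counting tool, the annotation and the use of strand are not given in the sources used here, and the treatment of reads shared by overlapping or similar genes can change their counts. All 58735 identifiers were found in GENCODE 29, which gave symbols and positions.

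Counts were tested in R 4.3.3 with edgeR 4.0.16 (filterByExpr at count and total minimums of 10 and 15, TMM, glmQLFit with robust estimation, glmQLFTest). Adjustment followed Benjamini and Hochberg over 14338 genes, with a threshold of 0.05. The common biological coefficient of variation was 0.0374. Limits of 3 counts and 95% intervals cover counting error only. The alternatives were DESeq2 1.42.0, other scalings and filters, the replicate letter as a block, each library left out, and limma 3.58.1 on log2(FPKM + 1) or log2(FPKM + 0.1). Scripts were tested on simulated data. Every tested gene of the symbol rule was named, as were untested genes with at least 3 counts in a library, genes of the other lists called with a log2 fold change of at least 1, and the receptor chains of the cytokines described. IL12B, EBI3, IL19, IL20, IL21R and CXCL11 were added as partners or neighbors of these after values were seen. STAT3, STAT5B, JAK1, SOCS3, ACKR3, ZFP36, ZFP36L1, ZC3H12A, MYD88, IRAK1 and IRAK2 were added likewise, as partners or mediators. The genes and lists were chosen with earlier results of these data known. Promoters were read from a RefSeq table, and 18 of 25 tested genes were matched and used.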

Additional observations from a re-analysis of the deposited data

How the results depend on the processing

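The 18 calls among the 25 tested genes numbered between 12 and 18 under the 15 alternatives, and all genes called between 6523 and 8030. Of 344 comparisons of a gene under an alternative with its reported value, 322 kept their direction and side of the threshold, 16 lost the call and 6 turned direction. Those that lost the call were IL17D, IL4R and IL7. IL17D had an adjusted p of 0.150 with DESeq2, 0.0621 without a filter and 0.0820 with limma on all FPKM, and IL4R between 0.0732 and 0.197 with these and both other limma fits. IL7 had 0.0521 with limma on log2(FPKM + 0.1). The 6 that turned direction were genes not called, with a library left out: CXCL3 ranged from −0.13 to 0.035, CSF3 from −0.34 to 0.50 and CXCL16 from −0.35 to 0.11 on the log2 scale. With limma on log2(FPKM + 1) and no filter, the log2 fold changes of IL10, IL11, IL6R and IL24 were 0.66, 0.39, 0.27 and 2.64, since the added 1 is large beside their FPKM. The median log2 fold change was −0.053 with DESeq2 (54 genes), −0.075 without a filter (54), −1.23 with a mean of at least 50 counts (12), −0.96 with limma on log2(FPKM + 0.1) (16) and −0.036 with limma on all FPKM (46), where other genes entered. It ranged from −0.54 to −0.36 with a library left out. The count of chemokine receptors called was 0 with DESeq2, with a mean of at least 50 counts and with limma on log2(FPKM + 1) or log2(FPKM + 0.1), and 0 to 1 with a library left out. Related cytokines called were 1 to 2 with a library left out. The cause of these differences was not tested, other than fewer or more genes tested. Replicate letters did not pair the libraries (correlations of deviations 0.042, −0.012 and −0.0033), and with the letter as a block 18 of these genes and 7862 of all genes were called. Genes under about 10 counts a library have wide errors.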

Other observations

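Genes that act on cytokine mRNA and on interleukin-1 were measured beside the cytokines. Of 10 genes for proteins that bind and degrade or stabilise cytokine mRNA, 10 were tested and 9 were called, with 5 higher and 4 lower, beside 56.0% of all genes called, 27.6% higher and 28.4% lower. ZFP36L2, which binds AU-rich elements and speeds mRNA decay, went from 95.3 CPM ± 4.57 (SD, n = 3) in DMSO to 42.4 CPM ± 3.69 in AS1842856 and fell by 1.17 on the log2 scale (adjusted p = 5.48e-57, edgeR's quasi-likelihood test). Its relatives ZFP36 and ZFP36L1 fell by 0.67 and 0.40 (adjusted p = 1.10e-10 and 8.80e-21). ZC3H12A, which codes for the RNase regnase-1, rose by 0.53 (adjusted p = 4.29e-05). The ZFP36 genes fell in the same libraries as CXCL1 and IL6, whereas CXCL8 and IL10 rose there and CXCL3 was not called. The part of the ZFP36 genes in these levels was not tested.

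Of 17 genes that process interleukin-1 or carry its signal, 14 were tested and 11 were called, with 5 higher and 6 lower, a share of 78.6% beside 56.0% of all genes. GSDMD, which forms the pore through which interleukin-1 leaves the cell, went from 87.0 CPM ± 0.515 to 39.7 CPM ± 2.40 and fell by 1.13 (adjusted p = 1.38e-54). MYD88 and IRAK1, which carry the signal of the receptor, rose by 0.50 and 0.32 (adjusted p = 1.86e-17 and 1.81e-18), whereas IRAK2 fell by 0.78 (adjusted p = 2.77e-16). Of 19 cytokine genes with other symbols, 5 were tested and 1 was called, a share of 20.0% beside the same 56.0%. This was CLCF1, a relative of IL6 that signals through IL6ST, which had 421, 302 and 376 counts in DMSO and 168, 250 and 141 counts in AS1842856 and fell by 1.02 (adjusted p = 2.67e-18).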
